A study of Homo sapiens and Mus musculus with 19 samples.

Results

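The genes described are 10 human imprinted loci, H19, IGF2, KCNQ1, CDKN1C, SNRPN, MEST, PEG3, PEG10, GNAS and PLAGL1, out of 56742 autosomal genes in the reference table. For each, all CCGG sites from 5 kb before to 5 kb past the GRCh38 span of the gene were taken. The 10 windows held 1810 of 2211146 autosomal CCGG sites, of which 240 lay in 12 imprint control regions and 1570 in the rest of the windows. Gene spans were those of the RefSeq table. The bounds of the control regions came from general knowledge of these loci and were not checked against a published set.

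Imprinted genes are read mainly from the copy inherited from a single parent. The choice is marked at a control region, where the copy from the mother or the copy from the father carries 5-methylcytosine (5mC) and the other copy does not, so that a cell with both copies in their usual state yields methylated and unmethylated reads of the same site. The marks are set in the germ line and kept in body tissues, and their gain or loss is known from growth disorders, from cultured stem cells and from liver tumours.

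The cells were HepG2, a human line from a hepatocellular carcinoma, and H1ES, a human embryonic stem cell line, and no treatment is labelled for either. Each line had 2 libraries of 1000 cells and 5 libraries of 1 cell each, the single cells stained with the dye Calcein-AM and put into tubes, and 5 mouse cerebellum libraries of the same study were not analysed here. DARESOME, the assay, cuts DNA at CCGG with enzymes that differ in their tolerance of methylation and gives each cut site a tag for unmethylated C, 5mC or 5-hydroxymethylcytosine (5hmC). The question for these loci was how far the 3 kinds of tag differed between HepG2 and H1ES, in the control regions and apart from them.

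The 1000-cell libraries held 5977422 and 5146348 tags in HepG2 and 6644517 and 4911898 tags in H1ES, and the single cells 526207 to 2455908 tags in HepG2 and 757767 to 1543724 tags in H1ES. Over all autosomes, 5mC made up 60.6% and 61.7% of tags in the HepG2 1000-cell libraries, against 93.6% and 94.2% in those of H1ES. Any locus that follows the genome is therefore lower in HepG2, and the members are read against that shift. Of 8 pluripotency markers, 7 were measured at their gene ends, and 2 had a higher unmethylated share in HepG2. Of 8 hepatocyte markers, 6 were measured, and 4 had a higher unmethylated share in HepG2. ALB, AFP and PTPRC had no tag in any 1000-cell library, and 5 of 6 markers of fibroblasts and blood were measured, 3 with a higher unmethylated share in HepG2. The median unmethylated share was 22.4% in HepG2 and 52.8% in H1ES over the pluripotency markers, and 48.2% in HepG2 and 7.41% in H1ES over the hepatocyte markers. HNF4A, a liver transcription factor, had 75.3% unmethylated tags in HepG2 against 1.02% in H1ES, and POU5F1, a pluripotency factor, 4.0% in HepG2 against 52.6% in H1ES. The hepatocyte markers FOXA2 (30.2% in HepG2, 75.0% in H1ES) and APOB (62.7% and 73.5%) went the other way. So did the pluripotency markers DNMT3B (66.2% in HepG2, 52.8% in H1ES) and DPPA4 (79.2% and 78.9%). LIN28B had no unmethylated tag in either line. Chromosome 20, which carries GNAS, had 1.93 and 1.92 times its mean H1ES share of autosomal tags in the HepG2 libraries, scaled to the median chromosome, and chromosome 6, which carries PLAGL1, had 1.33 and 1.34 times. The other member chromosomes (7, 11, 15 and 19) stood between 0.983 and 1.06 times.

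The stretches below show where the measured CCGG sites lie at 6 transcription starts inside control regions. They are the starts there with a whole CCGG that carried tags in a 1000-cell library, which ties the base sequence to a measured state. They are RefSeq promoters of GRCh38.p14, each of 300 bases around the start, on the plus strand, with each CCGG in capitals.
SNURF and SNRPN start, chr15:24954737-24955036: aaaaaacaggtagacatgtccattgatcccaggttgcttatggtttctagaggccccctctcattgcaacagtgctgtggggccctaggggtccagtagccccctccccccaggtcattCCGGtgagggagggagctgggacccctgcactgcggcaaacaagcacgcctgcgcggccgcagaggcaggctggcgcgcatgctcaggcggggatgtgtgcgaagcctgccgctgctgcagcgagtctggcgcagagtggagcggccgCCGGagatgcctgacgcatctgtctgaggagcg
MEST start, chr7:130491835-130492134: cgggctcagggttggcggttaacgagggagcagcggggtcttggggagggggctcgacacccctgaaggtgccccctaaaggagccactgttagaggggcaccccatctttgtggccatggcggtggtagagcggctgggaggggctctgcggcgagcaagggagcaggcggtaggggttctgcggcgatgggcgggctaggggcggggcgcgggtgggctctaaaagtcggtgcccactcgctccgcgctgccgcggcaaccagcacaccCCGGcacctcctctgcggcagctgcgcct
First GNAS start in the NESP55 region, chr20:58839498-58839797: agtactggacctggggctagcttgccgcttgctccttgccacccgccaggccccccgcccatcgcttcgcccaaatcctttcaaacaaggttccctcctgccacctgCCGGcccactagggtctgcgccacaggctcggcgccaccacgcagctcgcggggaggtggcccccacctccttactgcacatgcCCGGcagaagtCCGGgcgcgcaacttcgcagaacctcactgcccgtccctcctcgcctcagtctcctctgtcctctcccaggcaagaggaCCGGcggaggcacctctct
Second GNAS start in the NESP55 region, chr20:58841370-58841669: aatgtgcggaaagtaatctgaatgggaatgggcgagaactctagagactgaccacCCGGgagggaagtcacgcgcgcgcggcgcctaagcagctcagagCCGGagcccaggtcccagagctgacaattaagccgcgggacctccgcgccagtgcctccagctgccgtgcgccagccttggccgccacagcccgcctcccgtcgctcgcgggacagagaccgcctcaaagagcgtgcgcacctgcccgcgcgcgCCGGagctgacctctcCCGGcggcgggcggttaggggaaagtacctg
GNAS start in the GNAS-AS1 and XLAS region, chr20:58852731-58853030: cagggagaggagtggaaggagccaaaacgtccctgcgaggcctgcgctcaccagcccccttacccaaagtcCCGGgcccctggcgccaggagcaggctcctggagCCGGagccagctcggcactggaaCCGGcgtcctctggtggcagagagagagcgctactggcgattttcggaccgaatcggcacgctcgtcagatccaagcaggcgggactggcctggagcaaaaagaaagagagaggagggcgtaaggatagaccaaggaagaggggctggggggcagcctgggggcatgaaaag
GNAS start in the A/B region, chr20:58888163-58888462: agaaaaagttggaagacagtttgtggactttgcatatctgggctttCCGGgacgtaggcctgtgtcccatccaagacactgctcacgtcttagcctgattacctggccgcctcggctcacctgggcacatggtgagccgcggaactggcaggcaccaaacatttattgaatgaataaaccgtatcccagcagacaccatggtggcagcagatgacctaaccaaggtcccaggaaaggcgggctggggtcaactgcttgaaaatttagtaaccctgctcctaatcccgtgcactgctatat
CCGG is its own reverse complement, so both strands were searched at once, and 63.2% of 33725 autosomal promoters of this length held it. In the SNURF stretch, the sites at bases 120 and 268 gave 8 unmethylated and 4 5mC tags in the 2 HepG2 libraries together and 17 and 14 in those of H1ES. The single MEST site, at base 272, gave 0 unmethylated and 7 5mC tags in HepG2 and 4 and 8 in H1ES. Of the 4 sites at the first NESP55 start 1 carried tags, 21 unmethylated and 3 5mC in HepG2 and 2 and 5 in H1ES. At the second NESP55 start, 2 of 4 sites carried tags, 3 unmethylated and 19 5mC in HepG2 and 1 and 4 in H1ES with 2 5hmC, so the starts of this region stood opposite to each other in HepG2. At the start in the GNAS-AS1 and XLAS region, 2 of 3 sites carried tags, 8 unmethylated and 3 5mC in HepG2 and 15 and 1 in H1ES. The A/B site, at base 47, gave 7 unmethylated and 22 5mC tags in HepG2 and 3 and 15 in H1ES. These starts held both kinds of tag in both lines, except the MEST start in HepG2, where no unmethylated tag was found.

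The control regions were thinly measured. A tag was found at 23.8% and 21.7% of their 240 sites in the HepG2 libraries and at 20.4% and 19.2% in those of H1ES, against 48.3% and 46.5% (HepG2) and 49.1% and 45.2% (H1ES) of the 1570 sites in the rest of the windows. Sites are denser there, at 6.25 per kb in the control regions and 1.73 per kb in the rest. The part of site density in this gap was not tested.

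Over all control regions, 5mC was at 54.7% of 267 tags and 56.9% of 225 tags in the HepG2 libraries, and at 50.2% of 247 and 49.7% of 183 tags in those of H1ES. The rest of the windows had 51.6% and 52.5% in HepG2, against 92.8% in both H1ES libraries. The control regions of HepG2 and H1ES were thus both near an even mix, at 55.8% ± 1.56 in HepG2 and 49.96% ± 0.336 in H1ES, while the rest of the windows parted widely, at 52.1% ± 0.651 in HepG2 and 92.8% ± 0.035 in H1ES (SD, n = 2 libraries each). Both levels are pooled over tags. KCNQ1 gave 4103 of 6649 HepG2 tags and 4503 of 6979 H1ES tags in the rest of the windows. The rest of IGF2, MEST, CDKN1C and PEG10 was not called different. Among control regions, the GNAS-AS1 and XLAS region alone gave 147 of 492 HepG2 tags and 104 of 430 H1ES tags. The even mix over all regions hid regions that differed between the lines in both directions.

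Of the 12 control regions, 6 had at least 10 tags in every library and were tested, and 4 of these were called different between HepG2 and H1ES by edgeR's quasi-likelihood test at a Benjamini-Hochberg adjusted p under 0.05 over 17153 regions. The same table holds the ends of autosomal genes, where these had at least 10 tags in every library. Of all its regions, 44.6% were called, 3.63% higher and 41.0% lower in HepG2. The members' 4 calls were 2 higher (MEST, GNAS-AS1 and XLAS) and 2 lower (KvDMR1, PEG3). The effect is the log2 odds of a 5mC tag, HepG2 over H1ES, and its median was 0.12 over the 6 control regions against -2.05 over the table. On odds relative to each library, 2 of the 6 were called higher (MEST, GNAS-AS1 and XLAS) and 1 lower (PEG3), where 7.40% of all regions were higher and 26.6% lower. The labels do not say whether the 2 libraries of a line came from separate cultures, so a p-value here weighs the lines against library-to-library spread that could be purely technical.

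MEST encodes a protein of the hydrolase fold family and is read from the paternal copy, and its control region is methylated on the maternal copy. In HepG2, 24 of 25 and 22 of 22 tags there were 5mC, against 29 of 41 and 20 of 33 tags in H1ES. The level was 98% ± 2.83 in HepG2 and 65.7% ± 7.16 in H1ES (SD, n = 2), and the libraries of the lines did not overlap. The log2 odds was 4.25 ± 1.06 (SE, edgeR adjusted p = 0.000258). At the site chr7:130492572, the most covered of the region, all 7 and 10 HepG2 tags were 5mC, whereas the H1ES libraries had 3 5mC with 4 unmethylated and 5 5mC with 4 unmethylated tags. Of 10 HepG2 sites with a tag, 9 had 5mC tags and no unmethylated tag, and of 9 H1ES sites 6 had both kinds. Without H1ES library 1 or 2, edgeR's adjusted p was 0.0519 or 0.0678.

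PEG3, a zinc finger protein, is read from the paternal copy and is likewise methylated on the maternal copy. Its control region had 15 of 34 and 6 of 16 tags as 5mC in HepG2, against 27 of 28 and 17 of 17 in H1ES. The level was 40.8% ± 4.68 in HepG2 and 98.2% ± 2.53 in H1ES (SD, n = 2), without overlap. The log2 odds was -5.61 ± 1.02 (SE, edgeR adjusted p = 3.75e-07), and the call held with each library left out. All 6 measured sites had both kinds of tag in HepG2, and 5 of 6 had 5mC tags and no unmethylated tag in H1ES. MEST and PEG3 thus stood opposite to each other, with a near-complete 5mC level in HepG2 at MEST and in H1ES at PEG3, and a mixture in the other line.

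KvDMR1 is the control region inside KCNQ1, a potassium channel gene, at the start of the RNA KCNQ1OT1, and is methylated on the maternal copy. It had 3 of 24 and 2 of 15 tags as 5mC in HepG2, against 17 of 32 and 12 of 22 in H1ES, which is 12.9% ± 0.589 in HepG2 and 53.8% ± 1.0 in H1ES (SD, n = 2). The libraries did not overlap, and the log2 odds was -2.92 ± 0.81 (SE, edgeR adjusted p = 0.00111). At chr11:2700889, the most covered site, the HepG2 libraries had 7 unmethylated with 1 5mC and 3 unmethylated with 1 5mC tags, while those of H1ES had 5 unmethylated with 5 5mC and 4 unmethylated with 1 5mC and 1 5hmC. Of 8 HepG2 sites with a tag, 4 had both kinds and 4 unmethylated tags alone, and of 6 H1ES sites 4 had both kinds and 2 had 5mC tags and no unmethylated tag. With sites of at least 3 tags in a library weighted equally, the level was 22.9% in HepG2 and 58.5% in H1ES. This left out the 4 HepG2 sites with unmethylated tags alone, which had fewer tags in each library. The call was lost without HepG2 library 1 (adjusted p = 0.0516), without H1ES library 1 (0.0572) and on odds relative to those of each library (log2 odds -1.68, adjusted p = 0.111).

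GNAS encodes the stimulatory G protein alpha subunit and has several starts with imprints of opposite parental origin. In the GNAS-AS1 and XLAS region, methylated on the maternal copy, 41 of 75 and 43 of 72 tags were 5mC in HepG2, against 12 of 60 and 9 of 44 in H1ES. That is 57.2% ± 3.57 in HepG2 and 20.2% ± 0.321 in H1ES (SD, n = 2), a log2 odds of 2.38 ± 0.49 (SE, edgeR adjusted p = 8.74e-06). Without H1ES library 1 the adjusted p was 0.0546. The NESP55 region, methylated on the paternal copy, had 57.6% ± 4.0 in HepG2 and 64.1% ± 1.3 in H1ES, and the A/B region, methylated on the maternal copy, 66.3% ± 6.14 in HepG2 and 55.4% ± 1.21 in H1ES (SD, n = 2). Neither passed the test (log2 odds -0.38 ± 0.65 and 0.62 ± 0.91, SE, edgeR adjusted p = 0.703 and 0.635), and the regions held 17 to 48 tags per HepG2 library and 11 to 20 per H1ES library. Only 2 of the 28 sites of the A/B region carried tags. The more covered site had 22 of 29 tags as 5mC in HepG2 and 15 of 18 in H1ES. The other had 3 of 9 in HepG2 and 0 of 9 in H1ES, so the A/B levels are averages of unlike sites. In H1ES the 3 GNAS regions thus ran from 20.2% to 64.1%, and in HepG2 from 57.2% to 66.3%. Whether the higher tag share of chromosome 20 in HepG2 has a part in these levels was not tested.

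The other 6 control regions had too few tags for the test, and their values are given with exact 95% Clopper-Pearson intervals on pooled tags, which cover counting error only. The SNURF and SNRPN region is methylated on the maternal copy and deleted or altered in Prader-Willi syndrome. There 5mC was at 36.4% of 22 tags in HepG2 (17.2 to 59.3%) and at 43.9% of 41 tags in H1ES (28.5 to 60.3%). The single libraries had 5 of 14 and 3 of 8 5mC tags in HepG2. Those of H1ES differed more, with 9 of 27 and 9 of 14. At PEG10, a gene of retrotransposon origin read from the paternal copy, it was at 62.5% of 16 tags in HepG2 (35.4 to 84.8%) and at 9.09% of 11 tags in H1ES (0.23 to 41.3%). The single libraries at PEG10 had 7 of 13 and 3 of 3 5mC tags in HepG2 and 0 of 3 and 1 of 8 in H1ES. At PLAGL1, a zinc finger factor read from the paternal copy, 5mC was at 17.4% of 23 tags in HepG2 (4.95 to 38.8%) and at 4.55% of 22 tags in H1ES (0.115 to 22.8%), so a mixture as even as at KvDMR1 in H1ES was seen in neither line. The 2 IGF2 regions, secondary imprints of the growth factor gene, had 11 of 12 and 8 of 8 5mC tags in HepG2 and 10 of 10 and 2 of 3 in H1ES. The H19 control region, methylated on the paternal copy, had 23 sites and no tag in any of the 14 human libraries, so nothing can be said of it.

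**Figure D1:**
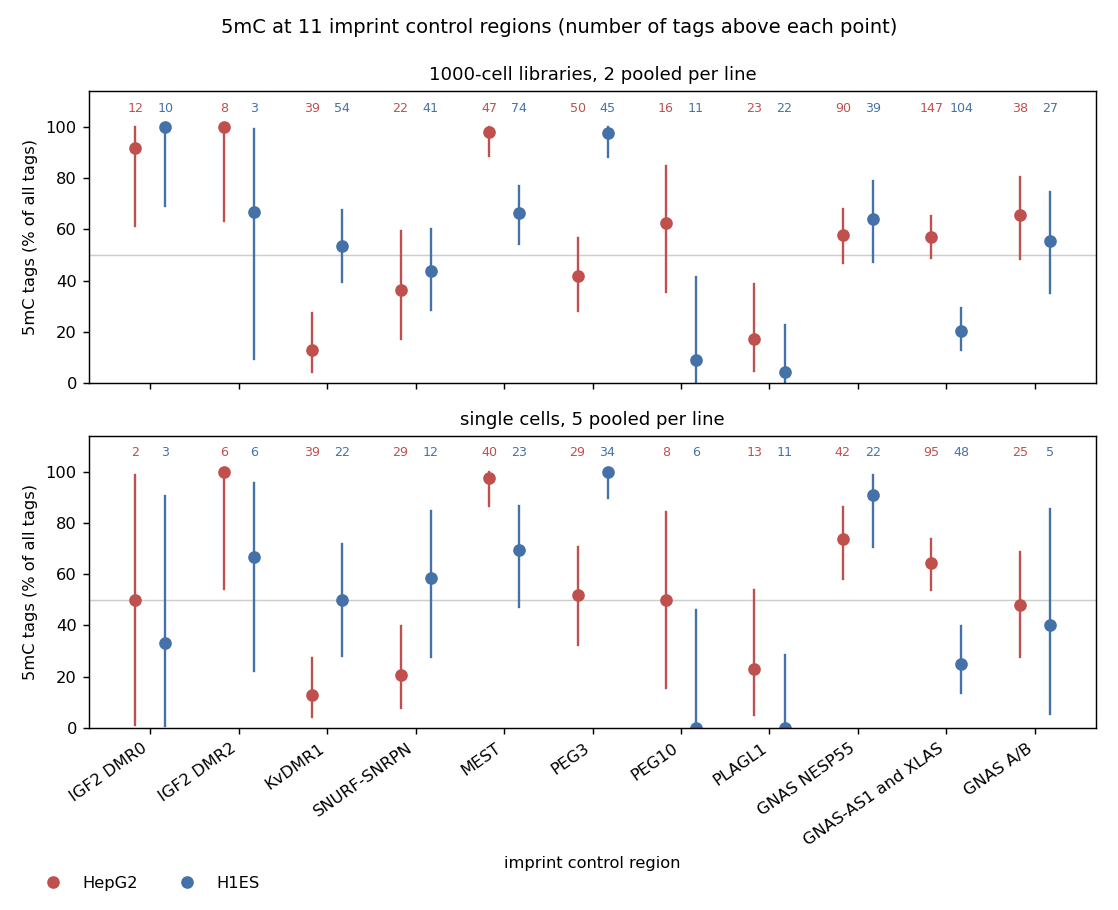
Share of 5mC tags (% of all tags, vertical axis) at the 11 control regions with tags, HepG2 in red and to the left, H1ES in blue, pooled over 2 libraries of 1000 cells (upper panel) and 5 single cells (lower panel). Bars are exact 95% intervals of the pooled tags and the numbers above are tags. MEST stands at 97.9% in HepG2 and 66.2% in H1ES and PEG3 at 42.0% in HepG2 and 97.8% in H1ES in the upper panel, and the single cells lie in the same order.

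Over the whole windows, control regions included, 9 members had at least 20 tags in every library, and 5 of them were called lower in 5mC in HepG2 and 0 higher (edgeR, adjusted over 39029 genes). DESeq2 also called 5 lower and 0 higher, and 25136 of all genes. Of all tested genes, 72.4% were called, 70.4% lower and 2.0% higher in HepG2, and the gap between this share and the members' 5 of 9 was not tested. The median log2 odds was -0.82 over the 9 members and -2.53 over all genes. Each library's own odds, taken as the base, moved the median of all genes to -0.12, and 32.9% of genes were then called higher and 36.3% lower in HepG2. On that scale 6 members were called higher and 2 lower. The directions given below are absolute, and the relative ones are named where they differ.

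KCNQ1 had 47.9% and 49.4% of 2236 and 1906 tags as 5mC in HepG2, against 95.5% and 95.6% of 2755 and 1802 tags in H1ES. The log2 odds was -4.50 ± 0.11 (SE), and its edgeR adjusted p was too small for the program to write. SNRPN, which encodes a splicing protein of brain and heart, had 40.2% and 42.1% in HepG2, against 93.5% and 96.1% in H1ES (log2 odds -4.63 ± 0.20, SE, edgeR adjusted p = 5.39e-121). Both fell by more than the median gene, and both stayed lower on relative odds, by -2.03 and -2.16. PEG3 had 59.8% and 63.6% in HepG2, against 89.4% and 96.4% in H1ES (-2.88 ± 0.39, SE, adjusted p = 8.23e-13 with edgeR), and on relative odds no difference passed the test (-0.42, adjusted p = 0.389).

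GNAS and PLAGL1 fell by less. GNAS had 55.7% and 55.5% in HepG2, against 69.5% and 67.8% in H1ES (log2 odds -0.82 ± 0.18, SE, edgeR adjusted p = 1.49e-05), and limma on logit shares gave an adjusted p of 0.0522. PLAGL1 had 63.9% and 63.6% in HepG2, against 76.2% and 78.2% in H1ES (-0.94 ± 0.24, SE, edgeR adjusted p = 0.000157). On relative odds both were higher in HepG2, GNAS by 1.65 and PLAGL1 by 1.54. In neither did the libraries of the lines overlap on the absolute scale.

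MEST, IGF2, CDKN1C and PEG10 did not pass the test over the whole window. MEST had 83.7% and 84.9% in HepG2 and 75.9% and 73.9% in H1ES, and was the only tested member with both HepG2 libraries above both of H1ES (log2 odds 0.83 ± 0.41, SE, edgeR adjusted p = 0.0615). With no flank the same gene was called (1.32, adjusted p = 0.0137, edgeR). IGF2 had 65.3% and 64.7% in HepG2 and 75.3% and 62.5% in H1ES, so its H1ES libraries lay on either side of those of HepG2 (-0.34 ± 0.29, SE, edgeR adjusted p = 0.287). Without H1ES library 2 IGF2 was called lower (edgeR adjusted p = 0.0484), and with 10 kb of flank it was too (-1.80, adjusted p = 1.08e-14). CDKN1C had 63.6% and 48 of 80 tags in HepG2 and 65.8% and 69.3% in H1ES (-0.33 ± 0.34, SE, edgeR adjusted p = 0.390), and PEG10 had 24 of 30 tags and 91.3% in HepG2 and 91.9% and 75.8% in H1ES (0.06 ± 0.71, SE, edgeR adjusted p = 0.953). On relative odds MEST, IGF2, CDKN1C and PEG10 were all called higher in HepG2. The window of H19, a long RNA read from the maternal copy, had 20 and 17 tags in HepG2 and 26 and 16 in H1ES. These were too few for the test, with 19 and 14 as 5mC in HepG2 and all 26 and 16 in H1ES. All of them lay at 6 sites of the flank on the side of the lower coordinate. The gene span and the other flank had no tag in these libraries, so the H19 gene itself was not measured.

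**Figure D2:**
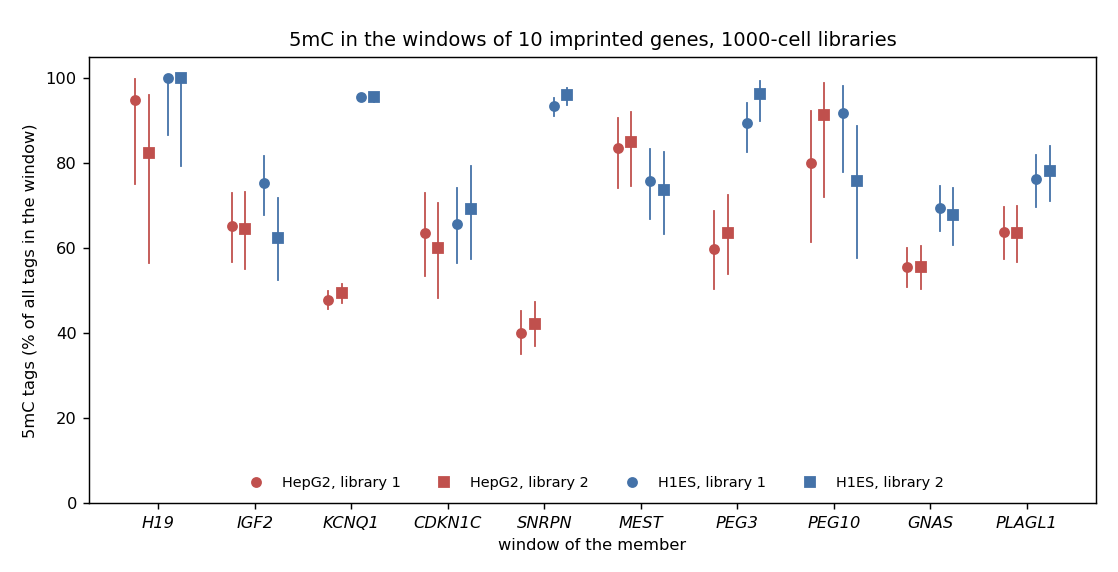
Share of 5mC tags (% of all tags, vertical axis) in the windows of the 10 members, in each 1000-cell library, HepG2 in red and to the left of H1ES in blue, with exact 95% intervals as bars. KCNQ1 and SNRPN stand at 40.2% to 49.4% in HepG2 against 93.5% to 96.1% in H1ES, while the libraries of IGF2, CDKN1C and PEG10 lie close together or overlap between the lines.

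Counts of unmethylated tags mirrored those of 5mC. This was nearly fixed in advance, since both kinds are shares of the same tags and 5hmC tags were few. The same fit called 5 of 9 members higher in unmethylated tags in HepG2 (KCNQ1, SNRPN, PEG3, GNAS and PLAGL1) and 0 lower, where 76.0% of all tested genes were called and 74.4% of all were higher. The log2 odds ran from 0.95 ± 0.19 (SE) at GNAS to 5.35 ± 0.12 at KCNQ1 (edgeR).

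With the control regions taken out, the rest of the windows was lower in 5mC in HepG2 at 6 of 10 members (KCNQ1, SNRPN, PEG3, GNAS, PLAGL1 and H19) and higher at 0, at a minimum of 10 tags, where 71.9% of 47105 genes were called, 70.1% lower and 1.82% higher. GNAS outside its control regions had 54.4% and 54.0% in HepG2, against 85.5% and 86.3% in H1ES, and its log2 odds was -2.35 ± 0.25 (SE, edgeR adjusted p = 1.95e-20), close to the table's median of -2.85. PEG3 had 66.3% and 68.1% in HepG2, against 87.4% and 95.5% in H1ES (-2.24 ± 0.45, SE, edgeR adjusted p = 1.31e-06). The H19 flank was called at an adjusted p of 0.0464, and that call was lost with each library left out (0.0746 to 0.356). On relative odds GNAS and PEG3 turned to 0.15 and 0.24, neither called, and PLAGL1 turned to 1.31, called higher. MEST outside its control region had 78.7% and 78.4% in HepG2 and 78.9% and 81.8% in H1ES, a log2 odds of -0.14 ± 0.51 (SE, edgeR adjusted p = 0.828), and was called higher on relative odds (2.36).

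MEST and PEG10, both on chromosome 7, stood in surroundings that kept more 5mC in HepG2 than the others did. In the 100 kb on each side of the window, MEST had 86.4% ± 2.93 in HepG2 and 97.0% ± 0.492 in H1ES, and PEG10 88.8% ± 2.18 in HepG2 and 98.7% ± 1.04 in H1ES (SD, n = 2). The flanks of the other 8 members lay between 48.1% and 65.4% in HepG2 and between 91.3% and 97.8% in H1ES. The flanks of KCNQ1 hold the CDKN1C window, those of CDKN1C hold part of the KCNQ1 window, and those of H19 and IGF2 overlap. These flanks were not tested.

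Along KCNQ1, 1 bin stood apart from the others. In bins of 50 kb, 8 of 9 bins had mean 5mC levels of 34.2% to 52.9% in HepG2, and the bin from 195 to 245 kb above the lower gene end had 92.9% and 96.6% of its 99 and 89 tags as 5mC. H1ES had 90.2% to 99.0% in all 9 bins. Of 119 KCNQ1 sites outside KvDMR1 with at least 10 tags in each line, 85 were lower in HepG2 by at least 20 percentage points, 34 within 20 points and 0 higher. In the bin from 195 to 245 kb, the site chr11:2651383 had 17 of 17 tags as 5mC in HepG2, against 17 of 18 in H1ES. The sites chr11:2654226, chr11:2662465 and chr11:2674998 had 13 of 13, 12 of 12 and 14 of 14 in HepG2, against 17 of 17, 13 of 13 and 10 of 10 in H1ES. The other sites within 20 points lay in other bins, among them chr11:2470526 with 20 of 20 5mC tags in HepG2 and 24 of 26 in H1ES, so fully methylated sites in HepG2 were not limited to that bin. These sites, and those named below for GNAS, PLAGL1, CDKN1C and IGF2, were chosen after their values were seen, and no bin or single site was tested.

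SNRPN was lowest on the side of the lower coordinate. Its first 4 bins of 25 kb had 21.4% to 30.9% in HepG2, against 88.5% to 98.5% in H1ES. Toward the control region and past it, HepG2 had 40.8%, 59.3% and 70.2% in the last 3 bins, against 99.1%, 69.9% and 98.5% in H1ES. The H1ES dip to 69.9% is the bin that holds the control region. Of 22 SNRPN sites outside the control region with at least 10 tags in each line, 19 were lower in HepG2 by at least 20 points and 0 higher.

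GNAS had a border in its bin levels instead. From 25 to 45 kb above the lower gene end, between the XLAS and A/B regions, the mean 5mC level of the bins of 10 kb was 35.6% and 40.3% in HepG2, against 85.0% and 94.8% in H1ES. From 55 to 75 kb, past the A/B region, it was at 99.0% and 97.6% in HepG2 and at 98.2% and 100% in H1ES. The site chr20:58878267 had 0 of 29 tags as 5mC in HepG2 and 10 of 11 in H1ES, and the site chr20:58907809 had 39 of 39 in HepG2 and 15 of 15 in H1ES. Sites at chr20:58891838 and chr20:58892106, between the A/B region and that stretch, were unmethylated or nearly so in both lines, with 0 of 20 and 0 of 10 5mC tags in HepG2 and 0 of 13 and 2 of 15 in H1ES. Between 25 and 45 kb not all sites were low in HepG2, as chr20:58882343 had 25 of 26 5mC tags there and 10 of 11 in H1ES.

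PLAGL1 moved both ways. In the bin from 20 to 45 kb above its lower end, HepG2 had 84.8% and 82.1% of 33 and 28 tags as 5mC, against 14 and 13 of 28 and 27 tags in H1ES. Its last bin, from 120 to 129 kb, had 24.0% and 39.1% in HepG2, against 62.5% and 93.3% in H1ES. Of 16 sites with at least 10 tags in each line, 8 were lower by at least 20 points in HepG2 and 2 higher. The larger rise was at chr6:143963456, inside the gene, with 8 of 9 and 5 of 5 5mC tags in the HepG2 libraries, against 3 of 13 and 0 of 9 in those of H1ES. In single cells the same site had 2 unmethylated and 12 5mC tags in HepG2 and 8 unmethylated and 0 5mC tags in H1ES.

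**Figure D3:**
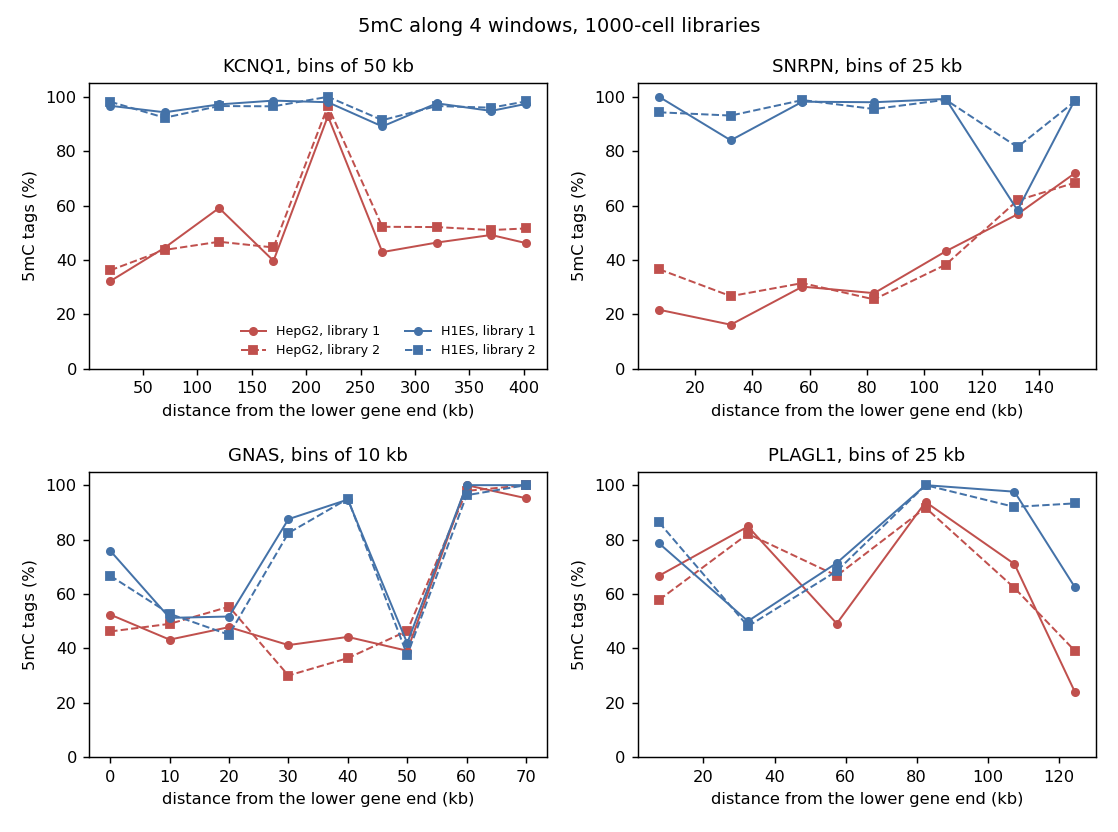
Share of 5mC tags (%, vertical axis) along KCNQ1, SNRPN, GNAS and PLAGL1 against the distance in kb from the gene end with the lower coordinate, in bins of 50, 25, 10 and 25 kb (the last bin is shorter), for each 1000-cell library of HepG2 (red) and H1ES (blue). The lines of HepG2 meet those of H1ES in 1 bin of KCNQ1 (94.8% in HepG2) and in the last measured bins of GNAS, and cross them in the PLAGL1 bin from 20 to 45 kb.

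CDKN1C, an inhibitor of cyclin-dependent kinases read from the maternal copy, lies beyond KCNQ1 on chromosome 11, and the RNA KCNQ1OT1 is known to silence it on the paternal copy. Its even window level hid opposite sites. The gene span itself had 27 of 27 and 18 of 18 5mC tags in HepG2, against 37.9% of 29 and 46.2% of 13 in H1ES. The 5 kb below the gene had 42.4% and 33.3% in HepG2, against 90.6% and 89.7% in H1ES. The 5 kb above the gene had 56.4% and 65.5% in HepG2, against 52.6% and 47.8% in H1ES. HepG2 was thus higher over the gene, lower on the side below it, and higher in both libraries on the side above it. The sites on the side above it differed in direction.

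The rise lay at the gene end with the higher coordinate, where CDKN1C starts. The site chr11:2885382, 393 bases inside the gene, had 16 of 16 and 12 of 12 5mC tags in the HepG2 libraries, against 1 of 14 and 0 of 2 in those of H1ES. The site chr11:2886374, 599 bases outside it, had 10 of 10 and 10 of 10 in HepG2, against 1 of 6 and 0 of 5 in H1ES. In single cells both sites had the same split, 0 unmethylated with 14 5mC tags and 0 with 4 in HepG2, against 7 unmethylated with 0 5mC and 4 with 0 in H1ES. No test is given for them, since they were chosen after their values were seen. The next site outward, 0.93 kb past the gene end, had 64.7% of 17 tags in HepG2 and 57.1% of 14 in H1ES, and the site at 2.7 kb was low in both, at 11.1% of 9 tags in HepG2 and 7.14% of 14 in H1ES. At 3.89 and 4.2 kb HepG2 was lower, with 0 of 4 and 4 of 10 5mC tags, against 8 of 8 and 8 of 9 in H1ES. KvDMR1, on the same chromosome, was at 12.9% in HepG2 and 53.8% in H1ES, and whether the levels at KvDMR1 and at CDKN1C are linked was not tested.

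**Figure D4:**
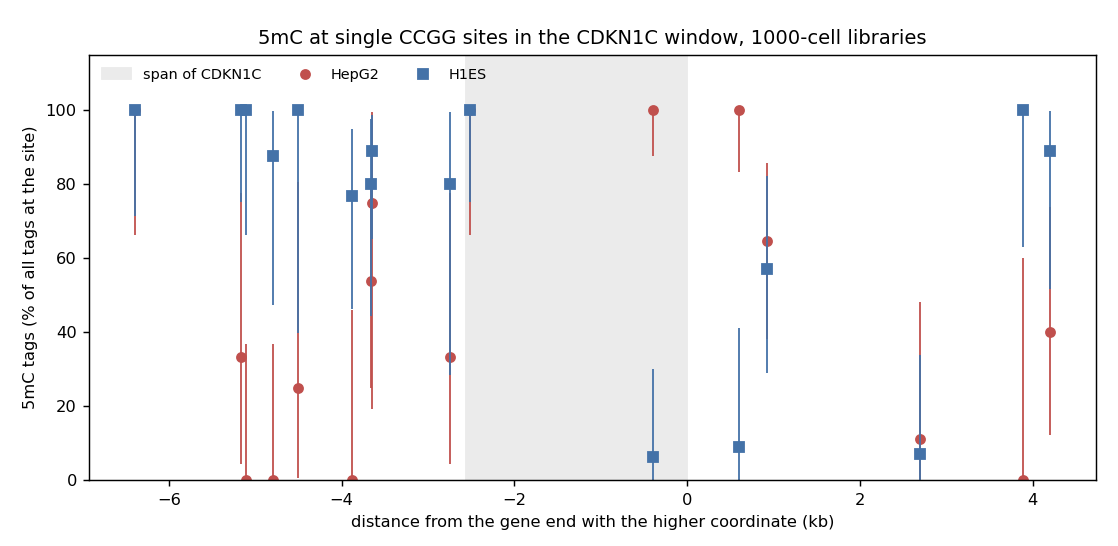
Share of 5mC tags (%, vertical axis) at 16 CCGG sites of the CDKN1C window with at least 4 tags in each line, against the distance in kb from the gene end with the higher coordinate, HepG2 as red circles and H1ES as blue squares, both pooled over 2 libraries of 1000 cells with exact 95% intervals. The gene is shaded. At -0.39 and 0.6 kb HepG2 stands at 100% and H1ES at 6.25% and 9.09%. Between -5.16 and -3.88 kb, and at 3.89 and 4.2 kb, HepG2 stands below H1ES.

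IGF2, which lies between H19 and KCNQ1, had a similar 5mC level over its gene span in both lines, averaged over sites of unlike level. Its gene span had 70.3% and 68.5% of 118 and 92 tags in HepG2 and 75.8% and 59.3% of 128 and 86 tags in H1ES. The 5 kb below the gene were low in HepG2, with 1 of 10 and 0 of 8 5mC tags against 92.9% of 14 and 3 of 3 in H1ES. Of 5 IGF2 sites with at least 10 tags in each line, 4 were within 20 points of each other in HepG2 and H1ES, among them chr11:2137878 with 0 of 11 5mC tags in HepG2 and 1 of 14 in H1ES. The site chr11:2146980 had 20 of 20 in HepG2 and 15 of 15 in H1ES. In the single cells, the IGF2 window outside its control regions had 100 5mC of 183 tags in HepG2 (54.6%) and 100 of 120 in H1ES (83.3%), a wider gap than the 62.5% in HepG2 and 69.1% in H1ES of the 1000-cell libraries. IGF2 thus held both fully and barely methylated sites in both lines.

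Hydroxymethylated tags were few at all members. KCNQ1 had 4 and 3 5hmC tags in the HepG2 libraries, against 52 and 37 in those of H1ES, which is 0.179% and 0.157% of tags in HepG2 and 1.89% and 2.05% in H1ES. GNAS had 0 of 467 and 0 of 398 in HepG2, which allows up to 0.642% and 0.754%, against 6 and 4 tags (1.99% and 2.01%) in H1ES. PLAGL1 had 0 of 252 and 0 of 220 in HepG2, which allows up to 1.19% and 1.36%, against 3 and 5 tags (1.49% and 3.03%) in H1ES. These 3 of 9 members were called lower in HepG2 by edgeR (adjusted p = 6.45e-11, 0.00406 and 0.0385) and 0 higher, where 7.23% of all tested genes were called, all of them lower. KCNQ1 remained called without any 1 library, whereas GNAS was lost without HepG2 library 1 (adjusted p = 0.0555), H1ES library 1 (0.178) or H1ES library 2 (0.0746), and PLAGL1 without any 1 of the 4 libraries (0.136 to 0.571). On relative odds edgeR called 0 of 9, and 0 of 9 passed an unadjusted p of 0.05, where 3 of 39029 genes were called. On absolute odds DESeq2 called 2 members and 518 genes, and limma 4 members and 4654 genes.

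CDKN1C had the highest 5hmC share among the windows in H1ES, 7 of 120 and 4 of 75 tags (5.83% and 5.33%), against 0 of 99 and 0 of 80 in HepG2, which allows up to 3.03% and 3.75% (edgeR adjusted p = 0.0535). MEST and PEG3 had no 5hmC tag in any 1000-cell library of either line, with 73 to 123 tags each. SNRPN had 0 and 1 5hmC tags in HepG2 and 7 and 6 in H1ES, IGF2 0 and 0 in HepG2 and 2 and 4 in H1ES, PEG10 0 and 2 in HepG2 and 0 and 1 in H1ES, and none of them passed the test. All control regions together had 0 5hmC tags of 492 in HepG2 and 5 of 430 in H1ES.

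The single cells put both kinds of tag, or a single kind, in the same cell. No test was made, since a library holds a single cell and the labels tie the cells to no culture. At the MEST control region, all 5 HepG2 cells had 5mC tags and no unmethylated tag, 0 unmethylated tags and 39 5mC tags in all, which allows an unmethylated share of up to 7.50%, and 1 5hmC tag. The 5 H1ES cells had 7 unmethylated and 16 5mC tags there, with both kinds in 3 cells. At the PEG3 control region, the HepG2 cells had 14 unmethylated and 15 5mC tags, with both kinds in 4 of 5 cells, against 0 unmethylated and 34 5mC tags in the 5 H1ES cells, which allows up to 8.82%. H1ES cells 1 and 5 had 5mC tags alone at MEST, 4 and 2 of them, and HepG2 cell 1 had 2 unmethylated tags alone at PEG3. No HepG2 cell had an unmethylated tag at MEST and no H1ES cell had one at PEG3, while the mixture was seen in 3 of 5 H1ES cells at MEST and in 4 of 5 HepG2 cells at PEG3.

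KvDMR1 had 34 unmethylated and 5 5mC tags in HepG2 cells, with 5mC tags in 3 of 5 cells, against 11 and 11 in H1ES cells, with both kinds in 4 of 5. The GNAS-AS1 and XLAS region had both kinds of tag in 5 of 5 cells of each line, with 34 unmethylated and 61 5mC tags in HepG2 and 36 and 12 in H1ES. The SNURF and SNRPN region had 20.7% 5mC of 29 tags in HepG2 cells (exact 95% interval 7.99 to 39.7%) and 58.3% of 12 in H1ES cells (27.7 to 84.8%). PLAGL1 had 10 unmethylated and 3 5mC tags in HepG2 cells and 10 and 0 in H1ES cells, and PEG10 had 4 and 4 in HepG2 cells and 6 and 0 in H1ES cells. HepG2 cells 3 and 5 gave 104 and 137 of the 328 control region tags of that line, so the HepG2 sums rest mainly on them.

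**Figure D5:**
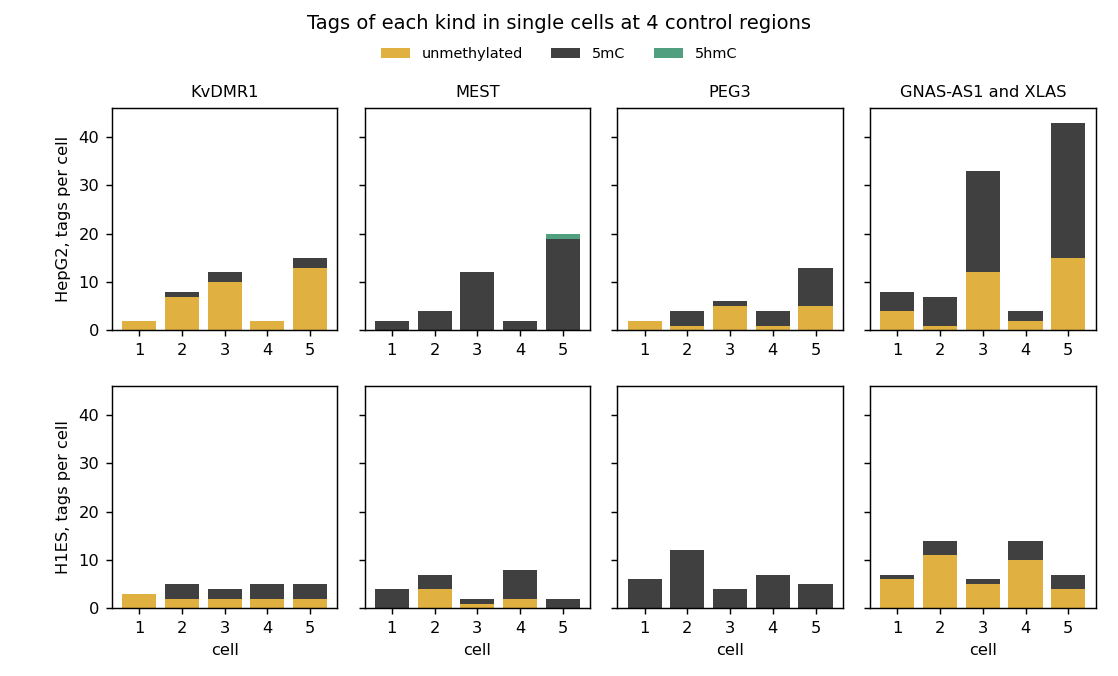
Number of tags (vertical axis) of each kind in the 5 single cells of HepG2 (upper row) and of H1ES (lower row) at 4 control regions, unmethylated in yellow, 5mC in dark grey and 5hmC in green. No HepG2 cell shows a yellow part at MEST and no H1ES cell shows one at PEG3, whereas the GNAS-AS1 and XLAS region shows both colours in every cell.

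A site with 2 or more tags in a cell could show whether both kinds came from the same site. In the control regions, both kinds were found at 36 of 75 such sites in HepG2 cells (48.0%, 36.3 to 59.8%) and at 12 of 37 in H1ES cells (32.4%, 18 to 49.8%). In the rest of the windows the share was 353 of 1009 sites in HepG2 cells and 34 of 731, or 4.65%, in H1ES cells (3.24 to 6.44%), and over the autosomes 26.2% in HepG2 cells and 3.14% in H1ES cells. In H1ES cells the share in control regions lay above that in the rest of the windows, with intervals that did not meet, whereas in HepG2 cells sites with both kinds were common in both. The intervals are exact and treat sites as independent, although sites of a cell share its library.

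Among sites with at least 4 tags in a line, pooled over its 1000-cell libraries, the middle range of 20% to 80% 5mC held 53.7% of 41 control region sites in HepG2 and 37.2% of 43 in H1ES. It held 42.3% of 638 sites in HepG2 and 8.32% of 637 sites in H1ES in the rest of the windows. Over the autosomes it held 29.6% of sites in HepG2 and 5.87% in H1ES. The H1ES control regions thus had middle levels more often than the sites around them by these counts, which were not tested.

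Of 41 further imprinted genes listed by name, 38 were tested, and 28 were called lower in 5mC in HepG2, 1 higher, and 9 neither, with a median log2 odds of -2.04 against -2.53 over all genes. The share of 73.7% lower was near the 70.4% of all genes. NTM, a neural cell adhesion gene, had 27.5% and 29.5% in HepG2, against 92.3% and 93.4% in H1ES, the smallest p of the list. OSBPL5, a lipid transfer gene near CDKN1C, had 37.3% ± 5.55 in HepG2 and 92.8% ± 0.134 in H1ES, and ATP10A, a lipid flippase gene in the SNRPN domain, 61.7% ± 4.54 in HepG2 and 93.6% ± 0.196 in H1ES (SD, n = 2). MAGI2, a scaffold protein gene on chromosome 7, had 59.2% ± 0.294 in HepG2 and 94.5% ± 0.304 in H1ES. The single gene called higher was DLX5, a homeobox gene on chromosome 7, with 57.0% and 61.3% in HepG2, against 22.7% and 30.7% in H1ES (log2 odds 2.03, edgeR adjusted p = 9.43e-10).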

How the data were processed

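The values used per CCGG site were both deposited by the authors: the fraction of tags that were unmethylated, 5mC or 5hmC, and the count of tags. Per the submitters' processing notes, the tools were Bowtie2 2.3.4.1, cutadapt 1.5 and UMI-tools 0.5.4, and the build was hg38, and the role of each tool and the rule by which tags were counted are not given in the sources used here. Per the labels' protocols, HpaII, MspI and NlaIII were used with a separate adapter for each state, and glucosylation kept 5hmC from the last MspI step. PCR, size selection and the distance to the nearest cut can all change which sites yield tags.

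Fraction times count gave whole tags (to within 0.00141 of a tag at every site), which were summed over CCGG sites per region and library. Each 1000-cell table was fitted with edgeR 4.0.16 (R 4.3.3), with a term for every library and a term for the mark in each line, and p-values were adjusted by Benjamini-Hochberg over all regions with at least 20 tags (gene windows) or 10 tags (control regions, rest of windows) in every library. DESeq2 1.42.0, limma 3.58.1 on logit shares with a pseudocount of 0.5, odds relative to those of each library, a term for the replicate number, other tag minimums and windows, and each library left out in turn were alternatives. Intervals are Clopper-Pearson at 95% (SciPy 1.17.1), and a count of 0 was given the limit of 3 counts. The members, marker lists and further imprinted genes were chosen with earlier results of these data known. Members are all named, of the further genes up to 4 called in each direction with the smallest p (4 lower, 1 higher), and up to 3 sites per control region with the most tags. Same-numbered libraries did not deviate together (correlation 0.01 for 5mC over 39029 windows, 2 pairs), so the numbers were not used as pairs.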

Additional observations from a re-analysis of the deposited data

How the results depend on the processing

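Over the single values, 440 comparisons with an alternative were unchanged, 26 turned direction, 29 lost and 14 gained the call, and 16 untested values moved. A tested value was unchanged where it kept its direction and its side of the threshold. An untested one was unchanged where it stayed within the library SD or, in single cells, within the exact interval. With sites of at least 3 tags in a library weighted equally, in place of pooled tags, 15 of the untested values moved and 25 did not. The largest moves were at the A/B region (to 54.7% in HepG2 and 41.3% in H1ES) and KvDMR1 (22.9% in HepG2). The NESP55 share of HepG2 cells moved to 53.3% over sites with at least 3 tags. On odds relative to each library, 8 members were called for 5mC against 5, 8 for unmethylated tags against 5, and 0 for 5hmC against 3, where 27025, 27138 and 3 of 39029 genes were called. The log2 odds of 5mC in HepG2 over H1ES then turned to 1.54 at PLAGL1, 2.13 at IGF2, 2.14 at CDKN1C and 1.65 at GNAS, that of unmethylated tags to -1.70, -2.31, -2.09 and -1.86 at the same members, and NESP55 to 0.87. In the rest of the windows it turned to 1.31 at PLAGL1, 0.81 at PEG10, 2.36 at MEST, 2.08 at IGF2, 2.17 at CDKN1C, 0.24 at PEG3 and 0.15 at GNAS. This scaling takes out the shift of the whole genome by construction.

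Of the control regions, 2 were called at a minimum of 20 tags and 2 within 1 kb of an RNA start, with 2 tested in each case, against 4 of 6, where 1205 of 2424 and 7648 of 17149 regions were called. With a library left out, 1 to 4 control regions and 1 to 2 members for 5hmC were called (2734 to 7482 of all regions, 594 to 1693 of all genes), and the lone library of that line was assumed to vary like the others. Leaving out a library gave log2 odds of -0.99 to 0.92 for 5mC at PEG10, -0.72 to 0.16 for 5mC at IGF2, -4.98 to 0.58 for unmethylated tags at PEG10, -2.12 to 3.71 for 5hmC at PEG10, -4.12 to 1.56 for 5mC in the rest of PEG10 and -0.81 to 0.091 for 5mC in the rest of IGF2. With no flank IGF2 had 0.093, and widened by 1 kb the A/B region had -0.40. For those turned values the cause was not tested. With the replicate number as a block, 5 members were called for 5mC (27900 of 39029 genes), 5 for unmethylated tags (29247), 1 for 5hmC (1004), 4 control regions (6622 of 17153) and 5 members in the rest of the windows (33042 of 47105). The calls lost were GNAS (adjusted p = 0.0665) and PLAGL1 (0.362) for 5hmC and H19 (0.135) in the rest. Of the 12 control regions, 6 had too few tags to be tested.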
